A study of Mus musculus with 6 samples.

Results

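Laminins and nidogens, the core glycoproteins of the basement membrane, were followed across mouse pluripotent cells grown with and without SB431542. The set was chosen by name: the laminin alpha chain genes Lama1, Lama2, Lama4 and Lama5, the beta chain genes Lamb1 and Lamb2, the gamma chain gene Lamc1, the nidogen genes Nid1 and Nid2, and the perlecan gene Hspg2. Of these 10 genes, 9 had a probe that could be named, as 11 of the 41174 probes on the array, and 8 were well above background and entered the tests among 16155 genes. Hspg2 had no matched probe and was not analysed here. The Lama2 probe was not well above background on any of the 6 arrays, so no difference is given for it.

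RNA was measured on 6 one-colour Agilent arrays, 1 for each of 6 groups, all of strain 129. Mouse embryonic stem cells, labelled mES and of stage E3.5, were grown with SB431542 (mES + SB431542) or without it (mES). Epiblast stem cells (EpiSCs), the primed pluripotent cells that resemble the epiblast after implantation, came as a line from E3.5 embryos (E3.5 EpiSC + SB431542, E3.5 EpiSC) and a line from E5.5 embryos (E5.5 EpiSC + SB431542, E5.5 EpiSC). Treated cultures received 20 µM SB431542 daily for 4 days, and all 6 groups shared Knockout DMEM with KSR. SB431542 is a small molecule that inhibits signalling through the Activin, Nodal and TGF-beta receptors. The labels give no vehicle for the untreated cultures and do not say how many cultures each RNA came from. Because no group has a second array, p-values measure the spread between the EpiSC lines or across lines, which may be technical.

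A basement membrane is a thin sheet of matrix under epithelia. Each laminin is a trimer of an alpha, a beta and a gamma chain, and the trimers join into a network on the cell surface through integrins and dystroglycan. Nidogens bind the gamma 1 chain and type IV collagen, and perlecan adds heparan sulfate chains. In the early mouse embryo the alpha 1 chain is made abundantly by the primitive and parietal endoderm, and a basement membrane separates the epiblast from the visceral endoderm. Laminins with the alpha 5 chain are known as a substrate on which mouse embryonic stem cells self-renew.

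Each array held 43379 gene spots, of which 82.6% to 85.7% were well above background and 0 were saturated, and the median coefficient of variation between repeat spots was 5.4% to 7.8%. The arrays of the mES and E5.5 EpiSC lines shared 1 slide, and the E3.5 EpiSC arrays lay on 2 others, 1 each. The labelled cell classes were checked against marker lists. In untreated EpiSCs all 6 naive markers were lower than in mES cells, with a median log2 difference of -7.62. All 4 primed markers were higher, with a median of 4.13. Pou5f1, a core pluripotency factor, stood between 5.35 and 5.88 on the log2 scale on the mES + SB431542 array and the 3 untreated arrays, and at -5.39 and -4.38 on the treated E3.5 and E5.5 EpiSC arrays. This defining marker of the labelled class was therefore at a low level in both treated EpiSC cultures. Of 5 pluripotent markers, 4 were lower on the treated array of both EpiSC lines. The other, Sox2, was higher by 0.66 log2 units in the E3.5 line and 0.32 in the E5.5 line. Lefty1, a feedback target of Nodal signalling, differed by -7.79, -10.60 and -10.11 log2 units with SB431542 in the mES, E3.5 and E5.5 lines. In a bulk sample, fewer cells of a type and less RNA per cell cannot be told apart. Levels below are log2 signal relative to the array's 75th percentile, and they are compared between arrays for 1 probe, never between probes.

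In EpiSCs treated with SB431542, the alpha 1 chain gene stood higher and the alpha 5 and beta 1 chain genes lower than in untreated EpiSCs. Lama1 rose 11.1-fold in treated EpiSCs. Lama5 was 6.99-fold and Lamb1 5.91-fold lower. Both missed the threshold in the fit without pairing, and both passed with each treated array paired to the untreated array of its line, with normexp background correction, and among genes well above background on all 6 arrays. Of the 8 genes tested, 1 passed at an adjusted p of 0.05 (limma, Benjamini-Hochberg over all genes), as a rise, where 0.891% of all genes rose, 1.2% fell and 2.09% passed in either direction. With the line as a block, 3 of 8 passed, 1 higher and 2 lower, among 814 genes called in place of 338. The median fitted difference was -0.68 over the 8 genes and -0.19 over all genes, and the median absolute difference was 1.51 against 0.47.

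**Figure D1:**
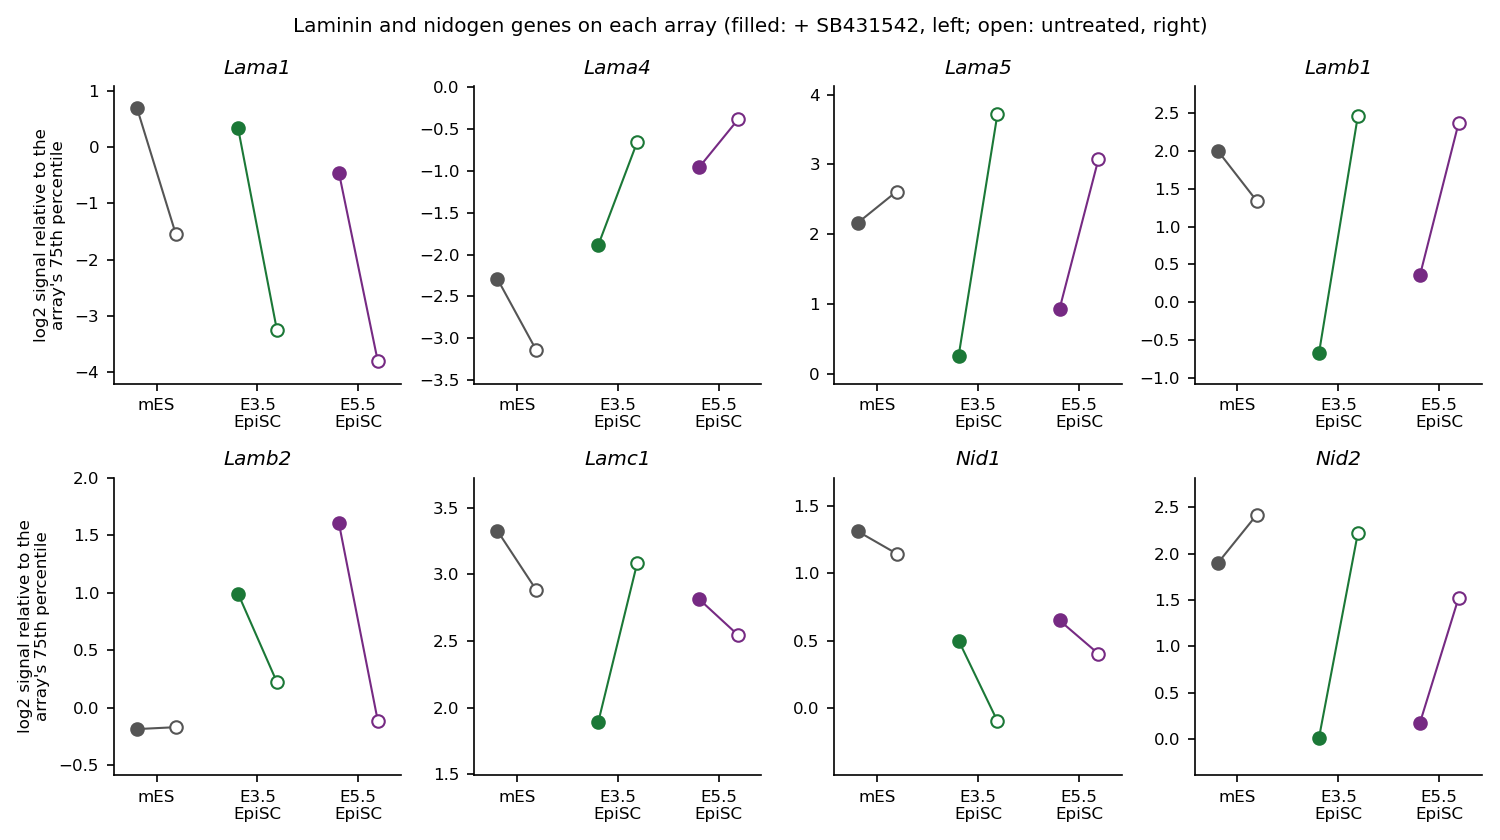
Level of each of the 8 measured genes on the 6 arrays, as log2 signal relative to the array's 75th percentile (vertical axis, own range in each panel), for the mES, E3.5 EpiSC and E5.5 EpiSC lines. Filled points are the SB431542-treated array and open points the untreated array of the same line, joined by a line. Lama1 lies between -0.46 and 0.69 on treated arrays and between -3.81 and -1.55 on untreated ones.

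Lama1 encodes the alpha 1 chain. Its level was 0.69 in mES + SB431542 and -1.55 in mES cells, 0.34 in E3.5 EpiSC + SB431542 and -3.25 in E3.5 EpiSCs, and -0.46 in E5.5 EpiSC + SB431542 and -3.81 in E5.5 EpiSCs. All 3 treated arrays lay above all 3 untreated arrays. The gain with SB431542 was 4.73-fold in mES cells, 12.1-fold in E3.5 EpiSCs and 10.2-fold in E5.5 EpiSCs. In EpiSCs the fitted log2 difference was 3.47 ± 0.41 (SE, 2 lines), with an adjusted p of 0.0397, or 0.0153 with the line as a block. The absolute difference exceeded that of 98.6% of the genes tested. Without 1 of the EpiSC arrays the difference kept its direction at 3.07 to 3.87. The adjusted p was then 0.145 without E3.5 EpiSC + SB431542, 0.0736 without E5.5 EpiSC + SB431542 and 0.0564 without E5.5 EpiSC. With normexp background correction the log2 difference was 2.41.

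Lama5 encodes the alpha 5 chain, which is widespread in epithelial basement membranes. Levels were 2.16 in mES + SB431542 and 2.61 in mES cells, 0.26 in E3.5 EpiSC + SB431542 and 3.72 in E3.5 EpiSCs, and 0.93 in E5.5 EpiSC + SB431542 and 3.07 in E5.5 EpiSCs. The treated arrays lay below the untreated ones in each line, and both treated EpiSC arrays lay below both mES arrays. In EpiSCs the log2 difference was -2.81 ± 0.40 (SE, 2 lines), with an adjusted p of 0.0524, and 0.0374 with the line as a block.

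Lama4 encodes the alpha 4 chain, known from the basement membranes of vessels and of mesenchymal tissue. Its brightest probe read -2.29 in mES + SB431542 and -3.14 in mES cells, -1.88 in E3.5 EpiSC + SB431542 and -0.65 in E3.5 EpiSCs, and -0.95 in E5.5 EpiSC + SB431542 and -0.38 in E5.5 EpiSCs. On this probe all 4 EpiSC arrays lay above both mES arrays. On the other 2 probes E3.5 EpiSC + SB431542, at -2.97 and -2.65, lay below mES + SB431542, at -2.65 and -2.22. The fitted difference with SB431542 in EpiSCs was -0.90 ± 0.40 (SE, 2 lines) with an adjusted p of 0.299. In mES cells the treated array was higher by 0.85 log2 units on this probe, and by 0.45 and 1.65 on the others.

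The Lama2 probe, for the alpha 2 chain of muscle and peripheral nerve, read between -8.35 and -6.95. The lowest probes called well above background on these arrays stood between -7.51 and -6.61.

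The beta chain genes differed from each other in EpiSCs. Lamb1, for the beta 1 chain, read 1.99 in mES + SB431542 and 1.33 in mES cells, -0.67 in E3.5 EpiSC + SB431542 and 2.45 in E3.5 EpiSCs, and 0.35 in E5.5 EpiSC + SB431542 and 2.37 in E5.5 EpiSCs. Both treated EpiSC arrays lay below the other 4 arrays. The difference in EpiSCs was -2.56 ± 0.42 (SE, 2 lines), with an adjusted p of 0.0658, and 0.0374 with the line as a block. Lamb2, for the beta 2 chain of the neuromuscular junction and the kidney glomerulus, read -0.19 in mES + SB431542 and -0.17 in mES cells, 0.99 in E3.5 EpiSC + SB431542 and 0.22 in E3.5 EpiSCs, and 1.60 in E5.5 EpiSC + SB431542 and -0.11 in E5.5 EpiSCs. Here both treated EpiSC arrays lay above the other 4. The difference of 1.24 ± 0.34 (SE, 2 lines) had an adjusted p of 0.160, or 0.136 with the line as a block.

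Promoter windows of 300 bases (250 before and 50 after the transcription start, RefSeq, GRCm38.p6) were available for 6 of the 10 genes. Those of Lama5 and Lamb1, lower in treated EpiSCs, and of Lamb2, higher there, are shown. The others were those of Nid1, described below, and of Lama2 and Hspg2, for which no difference is given. They lie at chr2:180225810-180226109 on the minus strand, chr12:31265043-31265342 on the plus strand and chr9:108479612-108479911 on the plus strand. Each is written 5′ to 3′ on the gene's strand, and capitals mark CAGAC or its reverse complement GTCTG, the letters of a SMAD-type motif.
Lama5: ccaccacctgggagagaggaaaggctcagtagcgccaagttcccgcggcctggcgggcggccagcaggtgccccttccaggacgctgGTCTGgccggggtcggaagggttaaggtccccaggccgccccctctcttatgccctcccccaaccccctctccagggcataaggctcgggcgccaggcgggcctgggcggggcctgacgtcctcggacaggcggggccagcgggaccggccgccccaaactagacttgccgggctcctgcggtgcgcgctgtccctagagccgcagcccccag
Lamb1: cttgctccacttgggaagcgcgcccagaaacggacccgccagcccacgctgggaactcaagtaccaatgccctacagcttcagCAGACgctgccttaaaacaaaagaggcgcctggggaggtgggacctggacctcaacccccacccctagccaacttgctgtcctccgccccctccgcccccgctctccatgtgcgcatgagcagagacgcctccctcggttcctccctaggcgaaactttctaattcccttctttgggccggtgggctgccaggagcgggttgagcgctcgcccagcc
Lamb2: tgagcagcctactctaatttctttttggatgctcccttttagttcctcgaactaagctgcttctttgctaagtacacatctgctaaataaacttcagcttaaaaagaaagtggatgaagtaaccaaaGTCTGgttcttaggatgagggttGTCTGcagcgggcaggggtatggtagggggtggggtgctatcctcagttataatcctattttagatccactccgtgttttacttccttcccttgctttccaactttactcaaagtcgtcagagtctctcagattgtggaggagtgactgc

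CAGAC was found, on either strand, at 1 place in the Lama5 window, 1 in that of Lamb1 and 2 in that of Lamb2. None of these 4 overlapped a match to the other motifs searched. The motif is common: 49.6% of 32851 RefSeq windows of the same length held it. GGGCGG, the core of a GC box, was present at 4 places in the Lama5 window and 2 in the Lamb1 window, and at 0 in that of Lamb2, where 35.7% of all windows held it. TATAAA, in 13.6% of all windows, was in none of the 3. The GC content was 72.7% for Lama5, 63.7% for Lamb1 and 44% for Lamb2. The window of Nid1, whose fitted difference in treated EpiSCs was also positive (0.42), held CAGAC at 0 places and GGGCGG at 1. Its GC content was 64.7%. The Nid1 difference did not pass the test, and Lama1 had no window. Any link between the letters of the windows and the direction of response was not tested. These matches describe the letters of the windows, and no binding was measured.

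Lamc1 encodes the gamma 1 chain, the partner of most laminin trimers. Its level was 3.33 in mES + SB431542 and 2.88 in mES cells, 1.89 in E3.5 EpiSC + SB431542 and 3.08 in E3.5 EpiSCs, and 2.81 in E5.5 EpiSC + SB431542 and 2.54 in E5.5 EpiSCs. The treated E3.5 EpiSC array was the lowest of the 6, and the other 5 lay between 2.54 and 3.33. In EpiSCs the log2 difference was -0.46 ± 0.43 (SE, 2 lines; adjusted p = 0.572).

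The nidogens link laminin to type IV collagen. Nid2 read 1.90 in mES + SB431542 and 2.42 in mES cells, 0.01 in E3.5 EpiSC + SB431542 and 2.22 in E3.5 EpiSCs, and 0.17 in E5.5 EpiSC + SB431542 and 1.53 in E5.5 EpiSCs. Treated arrays were lower in all 3 lines, and the treated EpiSC arrays lay below the other 4. The difference in EpiSCs was -1.78 ± 0.34 (SE, 2 lines), and its adjusted p of 0.0883, or 0.0652 with the line as a block, missed the threshold. Nid1 read 1.31 in mES + SB431542 and 1.15 in mES cells, 0.50 in E3.5 EpiSC + SB431542 and -0.10 in E3.5 EpiSCs, and 0.65 in E5.5 EpiSC + SB431542 and 0.40 in E5.5 EpiSCs. It was slightly higher on the treated array of every line, by 0.17 to 0.60 log2 units, and the EpiSC difference of 0.42 ± 0.30 (SE, 2 lines) had an adjusted p of 0.474.

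**Figure D2:**
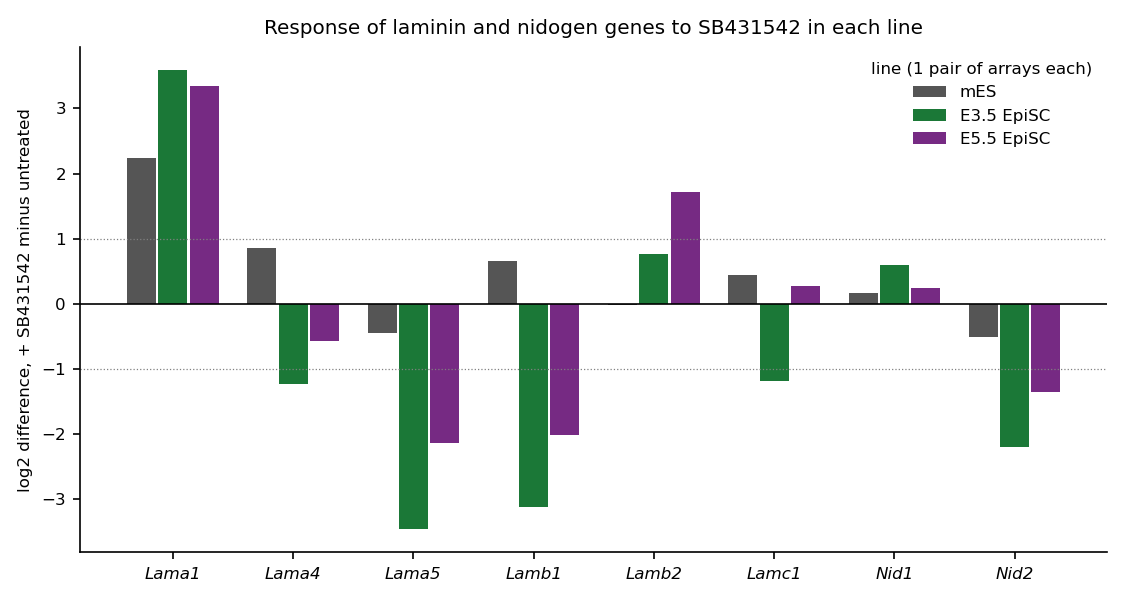
Difference between the SB431542-treated and the untreated array (log2, vertical axis) for each of the 8 genes, with bars for the mES, E3.5 EpiSC and E5.5 EpiSC lines from left to right. Dotted lines mark a 2-fold difference, and each bar is 1 pair of arrays without replicates. The Lama1 bars reach 2.24, 3.59 and 3.35, and the Lama5 bars -0.45, -3.47 and -2.14.

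Each line on its own gives 1 pair of arrays and no test. In mES cells 1 of the 8 genes, Lama1, differed at least 2-fold, as a rise in signal, where 2.6% of all genes did, 1.44% higher and 1.16% lower. In E3.5 EpiSCs 6 of 8 did, 1 higher and 5 lower, where 32% of all genes did, 11.7% higher and 20.2% lower. In E5.5 EpiSCs 5 of 8 did, 2 higher and 3 lower, where 15.7% of all genes did, 6.7% higher and 9.05% lower. Lamb1 was 1.58-fold higher on the treated mES array, and 8.68-fold and 4.03-fold lower on the treated E3.5 and E5.5 EpiSC arrays. Lamb2 differed by -0.02, 0.77 and 1.72 log2 units in the mES, E3.5 and E5.5 lines.

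The balance between alternative chains of a class, and between the nidogens, moved with treatment. The ratio of Lama1 to Lama5 signal was 6.46-fold higher with SB431542 in mES cells, 133-fold in E3.5 EpiSCs and 45.1-fold in E5.5 EpiSCs. All ratios here are without normexp correction, with which the fitted Lama1 difference in EpiSCs was 2.41 log2 units in place of 3.47. The ratio of Lamb2 to Lamb1 was 14.8-fold higher in E3.5 EpiSCs and 13.3-fold in E5.5 EpiSCs, while in mES cells it was 0.627 of the untreated ratio. Lama4 over Lama5 was 2.46-fold, 4.72-fold and 2.98-fold higher in the mES, E3.5 and E5.5 lines. Nid1 over Nid2 was 1.61-fold, 6.97-fold and 3.03-fold higher in the mES, E3.5 and E5.5 lines. The treated and untreated E3.5 EpiSC arrays lay on different slides. These values show unequal change within an array, were not tested, and say nothing on which chain is the more abundant.

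Across all 3 lines together, none of the 8 genes and none of all 16155 genes passed the limma test (0% in each direction), while 1397 genes, 3 of the 8 among them, had an unadjusted p under 0.05. Lama1 had the largest difference of the 8, 3.06 ± 0.34 (SE, 3 lines; adjusted p = 0.502), followed by Lama5 at -2.02, Lamb1 at -1.49, Nid2 at -1.36 and Lamb2 at 0.82. Leaving out either mES array, which removes that line from the comparison, gave 814 called genes and 3 of the 8: Lama1, Lama5 and Lamb1.

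Whether the response differed between EpiSCs and mES cells was tested directly. None of the 8 genes passed, and no gene of 16155 did (0%). An unadjusted p under 0.05 (limma) was found for 1110 genes (6.87%), Lamb1 and Lama5 among them. The largest difference in response was that of Lamb1, -3.22 ± 0.73 (SE) log2 units, with an adjusted p of 0.442, or 0.248 with the line as a block. Lama5 stood at -2.36, Lama4 at -1.75, and Lama1 at 1.23 ± 0.70 (SE; adjusted p = 0.851), or 0.34 with normexp correction. The greater gain of Lama1 in EpiSCs than in mES cells is therefore not separated from the spread between the lines.

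**Figure D3:**
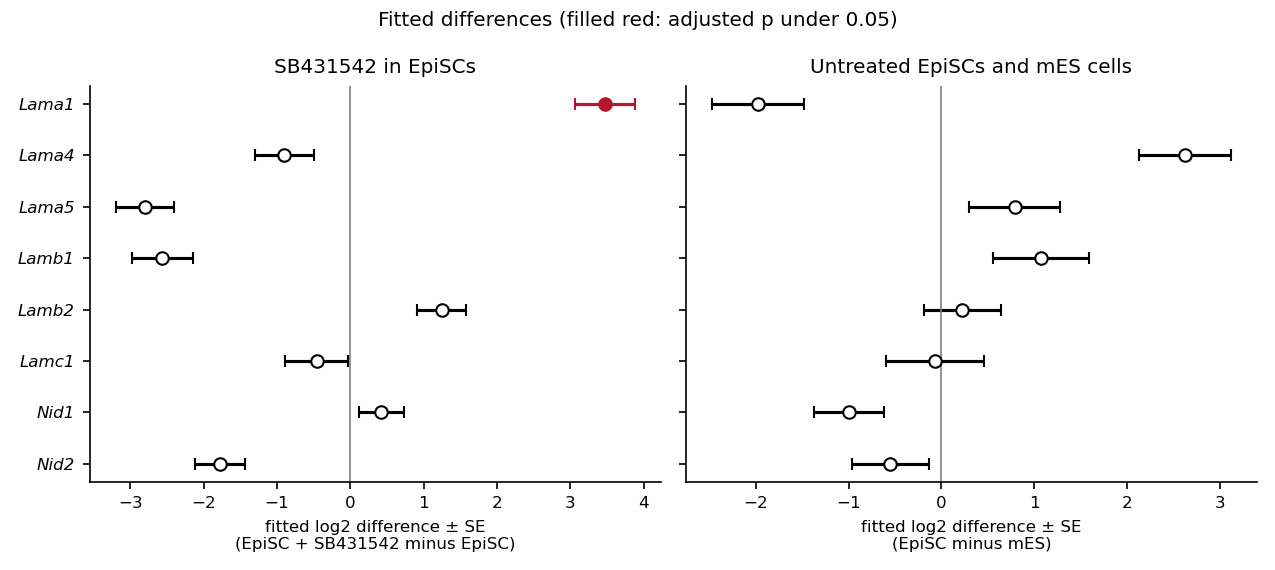
Fitted log2 differences with their standard errors (horizontal axes) for the 8 genes, from the limma fit over 6 arrays: SB431542-treated minus untreated EpiSCs on the left, and untreated EpiSCs minus untreated mES cells on the right. Filled red marks an adjusted p under 0.05 in the fit without the line as a block. Lama1 at 3.47 on the left is the only filled point.

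Untreated EpiSCs and mES cells were compared in the same fit. None of the 8 genes passed, where 242 of all genes did (1.5%, with 0.39% higher and 1.11% lower in EpiSCs), and 3 of the 8 had an unadjusted p under 0.05, where 2642 genes (16.4%) did. Normexp background correction gave 69 higher and 113 lower in place of 63 and 179. Lama4 was 6.17-fold higher in EpiSCs, a log2 difference of 2.62 ± 0.50 (SE, 2 EpiSC lines against 1 mES array; adjusted p = 0.0965). All 3 Lama4 probes were higher in EpiSCs, by 1.28 to 2.49 log2 units in the E3.5 line and by 1.05 to 2.76 in the E5.5 line. Lama1 was lower, at -1.97 ± 0.50 (SE; adjusted p = 0.157), or -1.01 with normexp correction, and without that correction by 1.69 log2 units in the E3.5 line and 2.25 in the E5.5 line. Taken line by line, 5 of the 8 genes differed at least 2-fold between E3.5 EpiSCs and mES cells (23.5% of all genes) and 3 of 8 between E5.5 EpiSCs and mES cells (22.6% of all genes). In the fit, Lamb1 differed by 1.07, Nid1 by -0.99, Lama5 by 0.79, Nid2 by -0.55, Lamb2 by 0.23 and Lamc1 by -0.07 log2 units, and none of these passed the test.

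The 2 EpiSC lines were compared over both treatments. None of the 8 genes passed and none had an unadjusted p under 0.05, where no gene passed (0%) and 1265 had an unadjusted p under 0.05. The largest fitted differences, E5.5 minus E3.5, were -0.68 ± 0.41 (SE) for Lama1 and 0.60 ± 0.56 (SE) for Lama4. Without treatment, 0 of the 8 genes differed at least 2-fold between the lines, where 10% of all genes did, and the widest gap was Nid2 at -0.69. With SB431542, 1 of the 8 did, where 17% of all genes did: Lamb1 was 1.02 log2 units higher in the E5.5 line than in the E3.5 line.

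Ordered from high to low, Lama1 ran from the 3 treated arrays through mES cells to the untreated EpiSCs. The top neighbours, mES + SB431542 and E3.5 EpiSC + SB431542, lay 0.35 apart, within the residual SD of 0.41 from the fit. For Lamb1 the untreated E3.5 and E5.5 EpiSCs led, 0.08 apart, and E5.5 EpiSC lay 0.37 above mES + SB431542, both within the residual SD of 0.42. For Lamc1 the gaps between the top 5 arrays, 0.07 to 0.27, were all within its residual SD of 0.43. The Lamb2 levels of E3.5 EpiSC, E5.5 EpiSC, mES and mES + SB431542 were likewise separated by gaps of 0.34, 0.06 and 0.02, each within the residual SD of 0.34. The same held for the top 3 arrays of Lama4 (gaps of 0.27 and 0.30, residual SD 0.40) and of Nid2 (gaps of 0.20 and 0.32, residual SD 0.34). Every gap of Lama5, 0.45 to 1.23, was above its residual SD of 0.40. These SDs, as moderated by limma, are those of a single array, and a gap between arrays varies more. Gaps just above them, such as 0.45 and 0.46 for Lama5, therefore do not settle an order.

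Genes with the most similar profile over the 6 arrays were found among 14482 genes by the root mean square difference of centred log2 values. Lama1 was nearest to Prdm16 (0.72), Fam81a (0.72) and Cryge (0.85). Lamb1 was nearest to Xpnpep2 (0.18), Arhgdib (0.21) and Gch1 (0.25), and Lamc1 to Mcu (0.11), Qrfp (0.11) and Otor (0.12). With 6 arrays these are descriptions of likeness only.

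Other basement membrane genes were counted from lists. In treated EpiSCs none of 8 collagens, none of 11 other basement membrane proteins, none of 3 other laminin chains, none of 14 laminin receptors and none of 6 dystroglycan glycosylation genes passed the test, where 2.09% of all genes did. Among 11 matrix proteases and inhibitors, 1 rose. This was Plat, tissue plasminogen activator, at 2.18 ± 0.29 (SE, 2 lines; adjusted p = 0.0471). Its level was 1.45 in E3.5 EpiSC + SB431542 and -0.80 in E3.5 EpiSCs, and 1.07 in E5.5 EpiSC + SB431542 and -1.04 in E5.5 EpiSCs. The Plat call was lost under quantile normalization (adjusted p = 0.0513) and without any 1 of the 4 EpiSC arrays (adjusted p 0.0766 to 0.153).

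Col4a5, a type IV collagen chain, read -1.93 in E3.5 EpiSC + SB431542 and -4.31 in E3.5 EpiSCs, and -0.59 in E5.5 EpiSC + SB431542 and -3.87 in E5.5 EpiSCs. The difference of 2.83 ± 0.53 (SE, 2 lines) had an adjusted p of 0.0833, and 0.0282 with the line as a block, the single added call in these lists under the block. It was not well above background on either mES array. Col4a2, a major type IV chain, differed by 1.40 (adjusted p = 0.238), and was higher on the treated array of every line, by 1.12 to 2.02 log2 units.

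Of the other basement membrane proteins, the calcium-binding Smoc1 differed by 2.54 (adjusted p = 0.142), the laminin-binding netrin Ntn4 by 2.02 (adjusted p = 0.0830) and fibulin Fbln2 by -1.34 (adjusted p = 0.264). Among the receptors, Bcam, a receptor for the alpha 5 chain, differed by -1.72 (adjusted p = 0.266), Itga7, an integrin alpha subunit best known in muscle, by 1.42 (adjusted p = 0.363), and Itga3 by -1.09 (adjusted p = 0.363). All 6 glycosylation genes, whose products make dystroglycan bind laminin, had a positive sign without passing the test, Pomgnt1 among them at 0.30 (adjusted p = 0.561). Of the other laminin chains, Lamb3 differed by -1.05 (adjusted p = 0.352) and Lamc3 by -0.34 (adjusted p = 0.601).

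**Figure D4:**
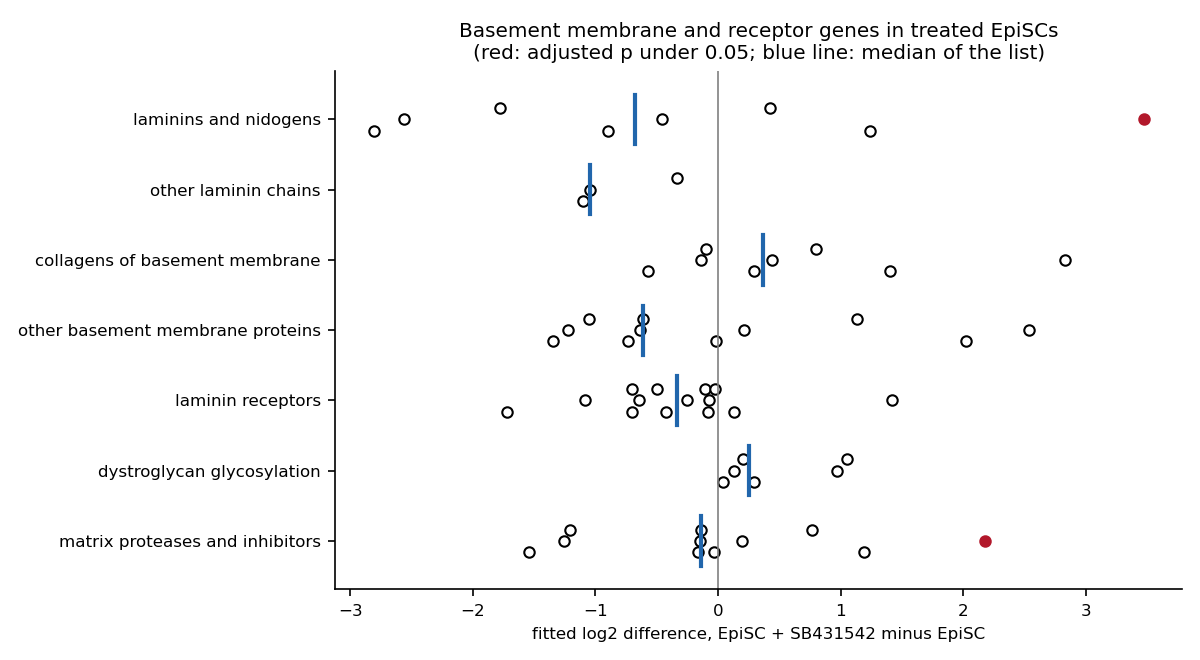
Fitted log2 difference of SB431542-treated minus untreated EpiSCs (horizontal axis) for the laminin and nidogen genes and 6 lists of related genes (rows), 1 point a gene. Blue bars are list medians and filled red points have an adjusted p under 0.05. The filled points are Lama1 at 3.47 and Plat at 2.18.

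In the comparison of untreated EpiSCs with mES cells, none of the genes on these 6 lists passed. The largest differences measured on both sides were those of Fras1, an extracellular matrix protein of epithelial basement membranes, at 3.38 (adjusted p = 0.0820), and Serpinh1, the collagen chaperone, at 3.04 (adjusted p = 0.0588). Col4a5, which was not well above background in mES cells, was at least 7.44-fold higher (adjusted p = 0.129). Of the 11 other basement membrane proteins 10 had a positive sign, with a list median of 1.15, where the median over all genes was -0.06. The 11 matrix proteases and inhibitors also had 10 positive, with a median of 1.32. The medians of the collagens, receptors and glycosylation genes were 0.35, 0.29 and 0.17. All 3 other laminin chains had a negative sign, with a median of -0.48.

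Markers of other cell types moved beside these genes. Of 7 neural markers 4 rose in treated EpiSCs (Hes5, Nr2f1, Pax3 and Zic1), and 5 with the line as a block. The summed level of the 7 was 124 in E3.5 EpiSC + SB431542 and 7.62 in E3.5 EpiSCs, 115 in E5.5 EpiSC + SB431542 and 4.49 in E5.5 EpiSCs, and 2.32 in mES + SB431542 and 2.30 in mES cells, as multiples of the array's 75th percentile. Their part in the Lama1, Lama5, Lamb1 and Nid2 differences was not tested.

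For 10 primitive and parietal endoderm markers, none passed in treated EpiSCs, and the summed level was 16.1 in E3.5 EpiSC + SB431542 and 18.2 in E3.5 EpiSCs, 28.8 in E5.5 EpiSC + SB431542 and 30.4 in E5.5 EpiSCs, and 13.5 in mES + SB431542 and 6.73 in mES cells. In mES cells all 10 were higher on the treated array, by a median of 0.98 log2 units and from 0.14 for the endoderm factor Gata6 to 2.69 for the growth factor receptor gene Pdgfra. In E3.5 EpiSCs 6 were higher and 4 lower on the treated array, and in E5.5 EpiSCs 4 were higher and 6 lower. Sparc, 1 of the 10, is also counted among the basement membrane proteins. The part of endoderm cells in the mES difference of Lama1 was not tested.

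For 14 fibroblast and feeder markers, none passed, and the summed level was 68.8 in E3.5 EpiSC + SB431542 and 77.5 in E3.5 EpiSCs, 120.7 in E5.5 EpiSC + SB431542 and 120.6 in E5.5 EpiSCs, and 61.5 in mES + SB431542 and 47.8 in mES cells. A sum weighs the brightest genes most. Gene by gene, 9 were higher and 5 lower on the treated array in E3.5 EpiSCs, with a median of 0.93 log2 units (-2.52 to 3.04). In E5.5 EpiSCs 3 were higher and 11 lower, with a median of -0.75 (-2.60 to 1.57). Of the 14, 10 had opposite signs of response in the EpiSC lines, 1 was higher and 3 were lower with SB431542 in both. Between untreated EpiSCs and mES cells, 13 of the 14 were higher in EpiSCs, with a median of 0.67 log2 units, and none passed. Their part in the differences of the laminin and nidogen genes was not tested. Of 5 endothelial markers none passed in either comparison. Of 5 trophectoderm markers 1 fell in treated EpiSCs, Eomes, a factor also of the primitive streak (-4.92 ± 0.60, SE; adjusted p = 0.0414). Of 7 visceral endoderm markers 6 were tested, and Ttr was not well above background on any array. None of the 6 passed in treated EpiSCs, and 1, the endocytic receptor gene Cubn, fell in the comparison of untreated EpiSCs with mES cells (-3.31 ± 0.37, SE; adjusted p = 0.0385).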

How the data were processed

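Cy3-labelled RNA was hybridised to one-colour arrays. The deposited intensity values are linear spot signals, background-subtracted and detrended by the authors with Agilent Feature Extraction, version 10.7.1.1 per the file headers and 9.1 per the submitters' processing notes. The deposited value table held the same intensity at 45018 of 45018 values on every array (column medians 181.7 to 269.6), so it is linear and not centred. The deposited flags for background, saturation and outliers are yes-or-no marks, per the file headers.

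Control and outlier spots were left out, repeat spots averaged, and log2 signal minus each array's 75th percentile used; log2 values were computed here from the intensities the authors deposited. The percentiles were intensities of 1190 to 1801. Gene symbols came from matching transcript accessions to the RefSeq table of GRCm38.p6 (24375 of 41174 probes, 17016 genes); the files hold no symbol column, and the headers name another build, so probe coordinates are not given. The brightest probe stood for a gene. Of 16157 genes well above background on at least 1 array, 2 with a missing value were left out.

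limma 3.58.1 in R 4.3.3 (lmFit, eBayes, Benjamini-Hochberg, adjusted p under 0.05) fitted 4 arms for the comparisons of EpiSCs and of mES cells, and line plus treatment for the other comparisons, each over 6 arrays (residual degrees of freedom: 2). A lone mES array is taken to have the spread of the EpiSC arms. Treated and untreated arrays share a cell line, so the line pairs them, and fits with the line as a replicate block (1 residual degree of freedom) are given where they change a call. Single pairs were described by a 2-fold rule, counting genes whose brighter array was well above background. On data simulated for SB431542 in EpiSCs over 16155 genes, 53% of changes of log2 size 2 and 99% of size 4 were recovered, with 12 false calls. The simulation changed 100 genes of each size and drew independent noise without a line effect. Its recovery therefore need not hold for these arrays.

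The genes, lists and tests were chosen with earlier results of these data known. All 10 genes are named; of the lists, called genes and otherwise up to 3 with the largest change per list are named, except a few that are not reported here. Pou5f1, Sox2 and Lefty1, and the markers at the ends of a range, were picked after their values were seen. A gene not well above background in mES cells is given as "at least N-fold", against its own mES signal where that exceeds the lowest signal well above background. Normexp correction (offset 50) used the median signal and median background, since the files hold no mean signal. No value-table column was left unmapped.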

Additional observations from a re-analysis of the deposited data

Results flagged for a closer look

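The Lamc1 difference with SB431542 had opposite signs in the EpiSC lines. Treated minus untreated, it was 0.27 log2 units in the E5.5 line and -1.19 in the E3.5 line. E5.5 minus E3.5, the responses differ by 1.46 log2 units. The 0.27 lies within the residual SD of 0.43, so a rise in the E5.5 line is not shown. The difference between the responses was not tested, since each line has 1 array per treatment. The E3.5 arrays also lie on slides of their own.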

How the results depend on the processing

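Over the 8 genes and 5 comparisons, 488 values were recomputed under alternatives: 456 kept their direction and their side of the threshold, 12 passed only under the alternative, 3 lost the call and 17 turned sign. Part of the 456 could not differ from the main fit. The deposited value table holds the same intensities, and of the 8 genes only Lama4 has more than 1 probe to average. Leaving out an mES array left the fit for SB431542 in EpiSCs as it was. For SB431542 in EpiSCs, the replicate block (the line) gave 814 called genes and 3 of the 8, and changed no other call among the 8 genes. Keeping only genes well above background on all 6 arrays gave 540 called genes and 3 of the 8. Fewer genes were then tested, and the reason for the added calls was not tested. Normexp correction gave 3 of the 8, and the share of all genes called under it is not reported here. That count is therefore not read as a result about the 8. Leaving out 1 array at a time gave 0 to 338 called genes and 0 to 1 of the 8, with 0 genes called (2419 and 5032 at an unadjusted p under 0.05, limma) without the treated E3.5 or the treated E5.5 EpiSC array, 200 without E3.5 EpiSC, and Plat between 1.99 and 2.37. Each fit without an EpiSC array has 1 residual degree of freedom and assumes that the lone EpiSC array of an arm varies like the others.

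Across the 3 lines, leaving out 1 array gave 0 to 814 called genes and 0 to 3 of the 8, with 814 without either mES array and 3 without either E5.5 EpiSC array. For untreated EpiSCs minus mES cells it gave 0 to 242, with 0 without either treated EpiSC array, and for the EpiSC lines 0 to 6, with 4 without either mES array and 6 without either E5.5 EpiSC array.

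With their sign kept across the lines, Lama1 was 2.30 log2 units with normexp correction, and Lama5 was -1.30 and Lamb1 -0.68 on slide 1 alone. Signs turned only for differences that passed in neither setting. Across the lines, slide 1 alone gave Lama4 0.14 and Lamc1 0.36, and leaving out 1 array gave Lama4 -0.90 to 0.14 and Lamc1 -0.46 to 0.36. For untreated EpiSCs, Lamc1 was 0.014 with quantile normalization and -0.34 to 0.20 over single left-out arrays. Between the EpiSC lines, Lama5 was -0.0072 with quantile normalization. Single left-out arrays there gave Lama4 -0.084 to 1.29, Lama5 -1.08 to 1.096, Lamb1 -0.75 to 1.69, Lamb2 -0.53 to 0.81, Lamc1 -0.58 to 0.96 and Nid2 -0.90 to 0.37. The cause was not tested. The median of all genes for SB431542 in EpiSCs was -0.19, -0.11 with quantile normalization and -0.33 with normexp correction. All 8 measured genes were well above background on every array, and 1 array per group limits the precision.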
